A study of Homo sapiens with 6 samples.

Results

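The CXC and CC chemokines of epithelium were described in KYSE450 cells after knockdown of HMGB2, a high-mobility-group protein of chromatin. KYSE450 is a cell line established from a human squamous carcinoma of the esophagus. The 10 genes are CXCL8, CXCL1, CXCL2, CXCL3, CXCL5, CXCL10, CXCL11, CXCL16, CCL20 and CCL5. They were chosen by name, as the rows of the deposited expression table whose gene name equals one of these, and all 10 were found among 27887 rows. The shHMGB2 group holds 3 RNA-seq libraries from cells infected with a virus carrying a hairpin against HMGB2. The mock group holds 3 libraries from cells given a mock virus and labelled wild type. Both groups share the line and RPMI1640 medium with serum, and the sources used here give neither the time after infection nor the number of hairpins. The series' design text asks which genes regulate cholesterol metabolism, so chemokines are a secondary readout of it.

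Levels are FPKM, a fragment count scaled by transcript length and by library total, as the authors deposited them. HMGB2 had 22.1, 24.5 and 27.8 FPKM in the shHMGB2 libraries, against 115.8, 111.4 and 108.6 FPKM in the mock libraries. Relative depth was estimated from rows seen in a single library, taking the authors' group values as normalised reads, and differed by at most 1.88-fold between libraries. Squamous epithelial markers summed to 5494 to 6166 FPKM in shHMGB2 and 6220 to 6325 FPKM in mock, while all 7 leukocyte markers in the table, CXCR2 and PTPRC among them, were below 0.5 FPKM in every library. All but the first library of each group are labelled as repeats, and nothing says that they were cultured apart. The p-values therefore cover the spread among these 6 libraries, and that spread may be technical. Fewer cells of a kind and less RNA per cell cannot be told apart in such bulk samples.

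Chemokines are small secreted proteins that guide leukocytes along gradients by binding receptors coupled to G proteins. The CXC members with a Glu-Leu-Arg motif before the first cysteines (CXCL1, CXCL2, CXCL3, CXCL5 and CXCL8) bind CXCR2 and attract neutrophils, and their genes are classical targets of NF-kB and AP-1 in epithelial cells. CXCL10 and CXCL11 lack that motif, bind CXCR3 on activated T cells and are induced by interferons. CXCL16 is made as a transmembrane protein that binds CXCR6, CCL20 binds CCR6, and CCL5 binds several CC receptors.

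The 7 CXC genes on chromosome 4 sit in 2 places. CXCL8, CXCL1, CXCL5, CXCL3 and CXCL2 lie in that order within 359 kb (GRCh38, 73740569 to 74099195), and CXCL10 and CXCL11 lie within 14.95 kb (76021118 to 76036070), a further 1922 kb along. CXCL16 (4733533 to 4739928) and CCL5 (35871491 to 35880360) lie on chromosome 17 and CCL20 (227813842 to 227817556) on chromosome 2. The bases before the RefSeq start sites are given for all 7 chromosome 4 genes. CXCL8, CXCL1 and CXCL2, called lower, lie in the first place, and CXCL10, called higher, in the second. The places do not separate the calls fully. CXCL3, which was not called, and CXCL5, which was not tested, also lie in the first place. CXCL11, which was not tested, lies in the second, and CCL20, also called lower, lies on chromosome 2. Each sequence runs 5′ to 3′ on the gene's own strand (RefSeq, GRCh38.p14) and ends at the base before the start. Capitals mark matches on either strand to an NF-kB-like motif, GGAANTTCC, an AP-1 motif, TGANTCA, and the interferon-stimulated response element, searched as GAAA, any 2 bases and GAAA.

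CXCL8, chr4:73740422-73740568, plus strand: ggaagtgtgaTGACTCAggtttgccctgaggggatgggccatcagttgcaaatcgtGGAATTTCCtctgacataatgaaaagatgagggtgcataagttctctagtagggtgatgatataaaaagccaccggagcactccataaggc
CXCL1, chr4:73869305-73869392, plus strand: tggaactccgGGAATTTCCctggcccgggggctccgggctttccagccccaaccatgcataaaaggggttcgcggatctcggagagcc
CXCL2, chr4:74099196-74099282, minus strand: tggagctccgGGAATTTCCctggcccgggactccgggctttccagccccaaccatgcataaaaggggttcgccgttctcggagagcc
CXCL3, chr4:74038690-74038777, minus strand: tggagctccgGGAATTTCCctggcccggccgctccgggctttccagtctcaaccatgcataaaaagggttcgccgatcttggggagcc
CXCL5, chr4:73998678-73998777, minus strand: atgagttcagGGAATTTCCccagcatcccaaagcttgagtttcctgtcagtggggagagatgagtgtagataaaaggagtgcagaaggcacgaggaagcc
CXCL10, chr4:76023498-76023728, minus strand: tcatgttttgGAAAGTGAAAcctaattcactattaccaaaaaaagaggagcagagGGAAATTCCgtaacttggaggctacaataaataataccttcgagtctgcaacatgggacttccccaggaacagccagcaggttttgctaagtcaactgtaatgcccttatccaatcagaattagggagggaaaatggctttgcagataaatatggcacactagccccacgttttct
CXCL11, chr4:76036071-76036167, minus strand: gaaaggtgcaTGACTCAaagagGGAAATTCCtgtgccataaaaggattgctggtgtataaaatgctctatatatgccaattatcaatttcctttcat

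The NF-kB-like letters were in the 250 bases before the start of all 7 of these genes, against 0.826% of 35116 RefSeq promoters of that length. The 7 include genes called lower, called higher and not called. The motifs were chosen with earlier results of these data known, so the contrast is background and no test. CXCL8, CXCL1, CXCL2, CXCL3 and CXCL5 carried the same 9 letters at 77 to 91 bases before the start. CXCL10 and CXCL11 carried the reverse complement of these letters, GGAAATTCC, at 176 and 75 bases. That is the same site read on the other strand. The interferon element was found in CXCL10, 221 bases before the start, and in 3.02% of all promoters. The AP-1 letters were found in CXCL8 and CXCL11, and in 6.57% of all promoters. RefSeq sequences were matched for 8 of the 10 genes, and CCL20 held none of the 3 motifs in this window. Other forms of NF-kB site were not searched, so this does not show that CCL20 lacks one. The 100 bases before the start were 90% identical between CXCL1 and CXCL3, position by position without gaps. They were 73% identical between CXCL1 and CXCL2 and 67% between CXCL2 and CXCL3, so matches in these genes are not independent. A match is a description of letters and shows no binding.

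The summed level of the 10 genes was lower in shHMGB2, and CXCL8 made up most of it in both groups. The sum was 242.4, 278.3 and 286.3 FPKM in the shHMGB2 libraries, against 463.1, 438.6 and 474.6 FPKM in the mock libraries. The groups did not overlap, and shHMGB2 stood at 0.586 times the mock mean. CXCL8 made up 55.9% ± 3.18 of this sum in shHMGB2 and 62.8% ± 2.82 in mock (SD, n = 3 each).

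**Figure D1:**
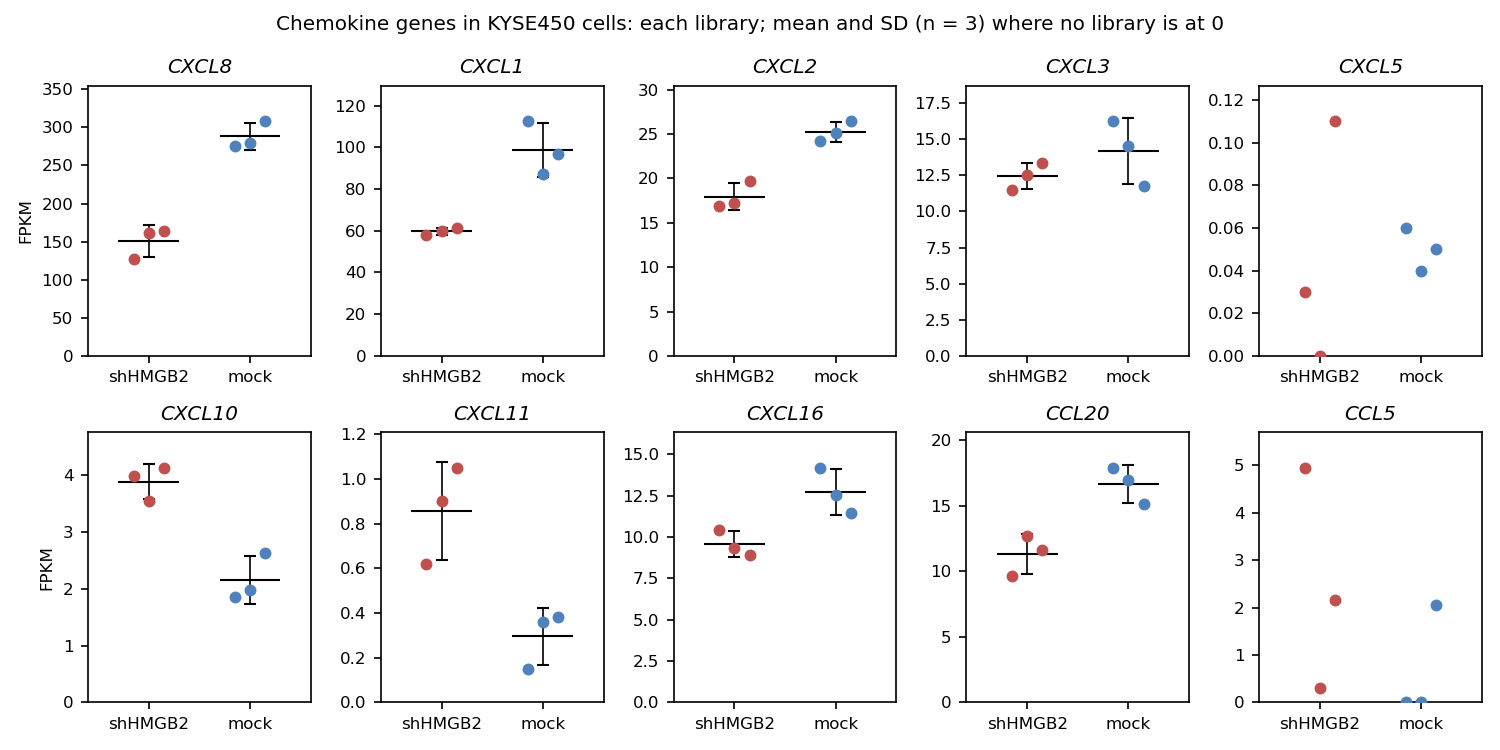
FPKM of each chemokine gene (y axis, linear from 0) in every shHMGB2 and mock library, with the mean and SD (n = 3) where no library is listed at 0. CXCL8, CXCL1, CXCL2, CXCL16 and CCL20 are lower in every shHMGB2 library than in any mock library, and CXCL10 and CXCL11 are higher in every one.

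Of the 10 genes, 8 averaged 1 FPKM or more across all 6 libraries and entered the limma test, which covered 13409 genes on the log2(FPKM + 1) scale. In it 4 were lower in shHMGB2 (CXCL8, CXCL1, CXCL2 and CCL20), 1 was higher (CXCL10) and 3 did not pass an adjusted p of 0.05. Over all genes tested, 3.45% were called lower, 3.3% higher and 6.75% either way. Median-of-ratios scaling changed that split of all calls to 349 higher and 571 lower, against 442 higher and 463 lower. The median log2 fold change was -0.42 over the 8 chemokine genes and 0.04 over all genes tested. Groups that did not overlap were found for 5 of the 8 genes downward and 1 upward, where 14% and 21.6% of all genes tested showed this. On this scale the change of a lowly expressed gene is understated.

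Among the neutrophil chemokines, CXCL8 (interleukin 8) was the most abundant gene and fell the furthest. It had 126.7, 162.0 and 163.7 FPKM in the shHMGB2 libraries, against 276.1, 280.2 and 308.1 FPKM in the mock libraries. The highest shHMGB2 library was well below the lowest mock library, and the mean was 47.7% lower. This gave a log2 fold change of -0.94 (SE 0.11, 95% interval -1.19 to -0.69, limma adjusted p = 0.00393). CXCL8 kept its call without any single library, with limma adjusted p from 0.00823 to 0.0202.

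CXCL1, a melanoma growth-stimulating chemokine, followed with a mean 39.5% lower. It had 57.8, 59.8 and 61.5 FPKM in the shHMGB2 libraries, against 112.5, 87.0 and 96.6 FPKM in the mock libraries. The shHMGB2 libraries were close together (coefficient of variation 3.11%), the mock libraries less so (13.1%), and the groups did not overlap. In limma the difference was -0.71 on the log2 scale (SE 0.093; adjusted p = 0.00637), and CXCL1 kept its call without any single library (limma adjusted p at most 0.0408).

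CXCL2, a neutrophil chemokine close to CXCL1 in sequence, had 16.8, 17.3 and 19.7 FPKM in the shHMGB2 libraries, against 24.2, 25.1 and 26.4 FPKM in the mock libraries. No shHMGB2 library reached the lowest mock value. Its log2 fold change in limma was -0.47, with an SE of 0.075 and an adjusted p of 0.0145. CXCL2 lost its call when mock replicate 2 was left out (limma adjusted p = 0.0588), and likewise for shHMGB2 replicate 1 (0.0594) and shHMGB2 replicate 2 (0.0652).

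CXCL3, the third of these near relatives, did not pass. It had 11.5, 12.5 and 13.3 FPKM in the shHMGB2 libraries, against 16.2, 14.5 and 11.7 FPKM in the mock libraries. The groups overlapped, since mock replicate 3 lay below 2 of the shHMGB2 libraries. Limma gave -0.17 on the log2 scale (SE 0.12, 95% interval -0.44 to 0.11, adjusted p = 0.385). Whether the changes of CXCL2 and CXCL3 differ was not tested.

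Reads could be split between these relatives. Of the 50-base windows of the longest coding CXCL2 transcript in GENCODE 29, 5.13% were also in CXCL1 and 4.62% in CXCL3. CXCL8 shared no such window with any of the other 9 genes. CXCL1 was 3.34 ± 0.192 times CXCL2 in shHMGB2 and 3.92 ± 0.634 times in mock, and CXCL2 was 1.44 ± 0.054 times CXCL3 in shHMGB2 and 1.82 ± 0.390 times in mock (SD, n = 3 each).

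CXCL5, a neutrophil chemokine of the same place on chromosome 4, did not exceed 0.11 FPKM in any library. It had 0.03 FPKM in shHMGB2 replicate 1 and 0.11 FPKM in shHMGB2 replicate 3 and was listed at 0 in shHMGB2 replicate 2, against 0.06, 0.04 and 0.05 FPKM in the mock libraries. Neither group stood apart. An exact permutation test, 2-sided, gave p = 1.0 for CXCL5, where the smallest that 3 against 3 libraries allow is 0.1.

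**Figure D2:**
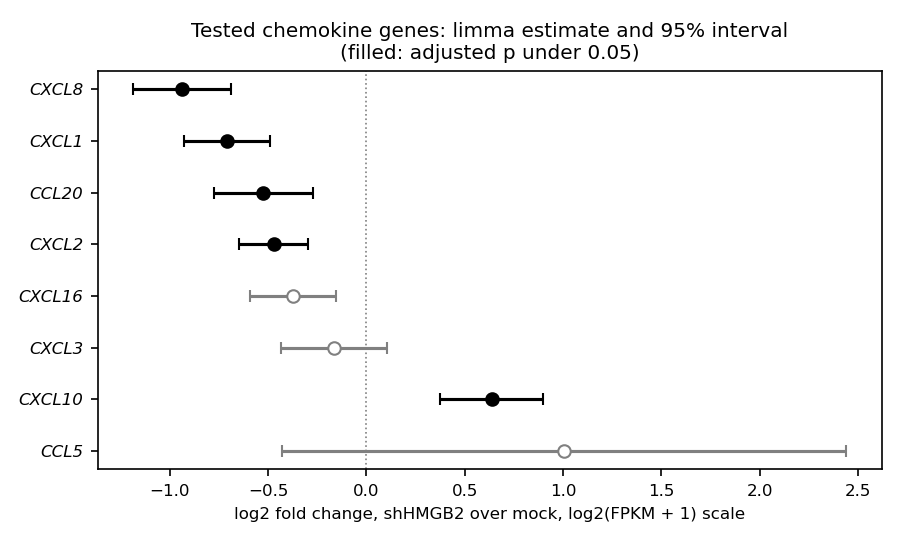
Log2 fold change of shHMGB2 over mock on the log2(FPKM + 1) scale (x axis) for the 8 tested chemokine genes, with the limma 95% interval; filled points passed an adjusted p of 0.05. CXCL8, CXCL1, CCL20 and CXCL2 lie left of 0, CXCL10 lies right of it at 0.64, and the interval of CCL5 runs from -0.43 to 2.44.

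Of the interferon-induced chemokines, CXCL10 rose. This ligand of CXCR3 had 3.98, 3.55 and 4.13 FPKM in the shHMGB2 libraries, against 1.86, 1.97 and 2.63 FPKM in the mock libraries. Every shHMGB2 library was above every mock library, with a mean 1.80-fold higher. Limma put the log2 fold change at 0.64 (SE 0.11, 95% interval 0.38 to 0.90, adjusted p = 0.0195). The CXCL10 call was lost when shHMGB2 replicate 1, 2 or 3 was left out (limma adjusted p = 0.0833, 0.0563 and 0.0774), as it was for mock replicate 2 (0.079). The authors' deposited table gives it an adjusted p of 0.0616.

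CXCL11, the neighbour of CXCL10 and also a CXCR3 ligand, was below the filter and was not in the test. It had 0.62, 0.90 and 1.05 FPKM in the shHMGB2 libraries, against 0.15, 0.36 and 0.38 FPKM in the mock libraries. The groups did not overlap, and the mean was 2.89-fold higher in shHMGB2. An exact permutation test, 2-sided, gave p = 0.1, the smallest that 3 against 3 libraries allow. With no filter on low values, limma gave a log2 fold change of 0.52 and an adjusted p of 0.107.

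The ratio of CXCL8 to CXCL10 sets the levels of these genes against each other within each library. A fall of CXCL8 alone would also lower it, so it adds no separate evidence on CXCL10. It was 31.8, 45.6 and 39.6 in the shHMGB2 libraries, against 148.4, 142.2 and 117.2 in the mock libraries. Scaling between libraries cannot change this ratio. The highest shHMGB2 value was less than the lowest mock value, and the means were 39.0 ± 6.92 in shHMGB2 and 135.9 ± 16.5 in mock (SD, n = 3 each).

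**Figure D3:**
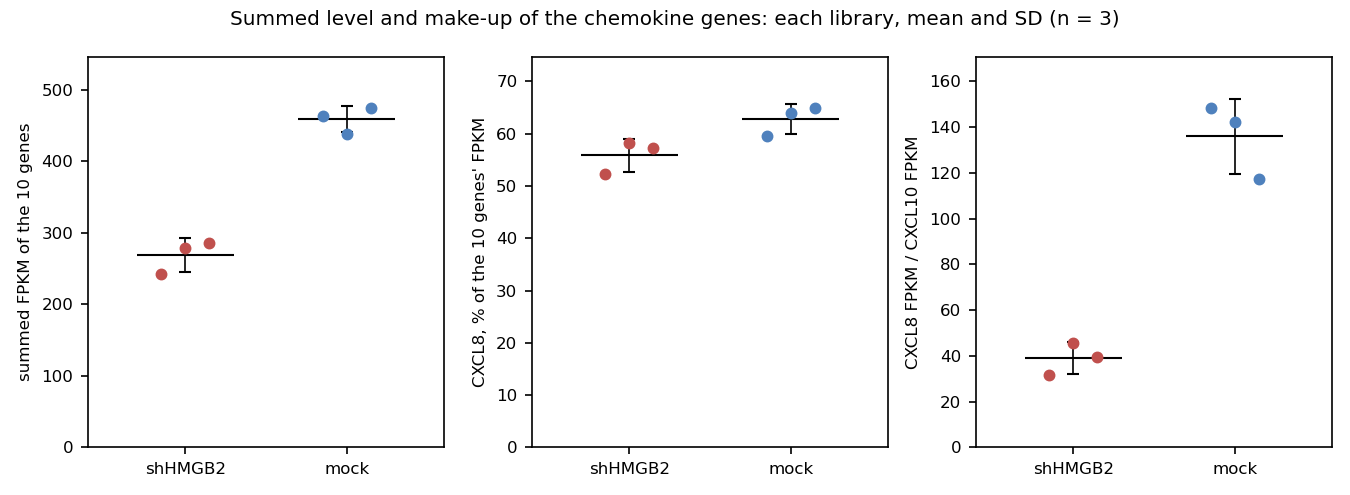
Summed FPKM of the 10 chemokine genes (left), CXCL8 as a percent of that sum (middle) and the ratio of CXCL8 to CXCL10 FPKM (right) in every library, with the mean and SD (n = 3). The ratio lies between 31.8 and 45.6 in shHMGB2 and between 117.2 and 148.4 in mock.

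CCL20, which attracts CCR6-bearing dendritic cells and T cells and is made by epithelia under NF-kB control, was lower in shHMGB2. It had 9.61, 12.7 and 11.6 FPKM in the shHMGB2 libraries, against 17.9, 16.9 and 15.1 FPKM in the mock libraries. The groups did not overlap, and the mean was 32.1% lower. Limma gave CCL20 -0.52 on the log2 scale, with an SE of 0.11 and an adjusted p of 0.0331. CCL20 passed without mock replicate 3 (limma adjusted p = 0.0399) and did not pass without any other single library, with values of 0.0827, 0.051 and 0.0895 for shHMGB2 replicates 1, 2 and 3 in turn, 0.0727 for mock replicate 1 and 0.109 for mock replicate 2.

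CXCL16, which acts as a membrane-bound adhesion molecule and, once shed, as a chemoattractant, had 10.4, 9.32 and 8.94 FPKM in the shHMGB2 libraries, against 14.2, 12.6 and 11.4 FPKM in the mock libraries. All shHMGB2 libraries were below all mock libraries. The log2 fold change was -0.37 (SE 0.094, 95% interval -0.59 to -0.16), and its limma adjusted p of 0.0578 missed the threshold. CXCL16 passed without mock replicate 3 (limma adjusted p = 0.0462), and the authors' deposited table gives it an adjusted p of 0.0111. ADAM10 and ADAM17, the proteases that shed CXCL16, had 9.41 ± 0.286 and 21.9 ± 1.62 FPKM in shHMGB2 and 8.53 ± 1.40 and 18.4 ± 2.57 FPKM in mock (SD, n = 3 each), with limma adjusted p = 0.437 and 0.186.

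CCL5 (RANTES), a chemokine for T cells and monocytes, varied widely within both groups in its own row. That row had 4.95, 0.31 and 2.17 FPKM in the shHMGB2 libraries, against 2.05 FPKM in mock replicate 3 and a listed 0 in mock replicates 1 and 2. It did not pass (log2 fold change 1.01, SE 0.61, limma adjusted p = 0.32). The table also holds a row with the name of CCL5 and a number added, taken here as a copy of the gene, though the table does not say what such rows are. It was high where the first row was low and equal to it in shHMGB2 replicate 3, at 0.03, 4.82 and 2.17 FPKM in the shHMGB2 libraries, against 3.25, 3.19 and 0.04 FPKM in the mock libraries.

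Summed over both rows, CCL5 varied less within each group than in either row alone. The sum was 4.98, 5.13 and 4.34 FPKM in the shHMGB2 libraries, against 3.25, 3.19 and 2.09 FPKM in the mock libraries. The groups did not overlap, with means of 4.82 ± 0.420 FPKM in shHMGB2 and 2.84 ± 0.653 FPKM in mock (SD, n = 3 each). Summing numbered copies for every gene, a choice made after seeing these values, gave CCL5 a log2 fold change of 0.61 (SE 0.13, 95% interval 0.31 to 0.91, limma adjusted p = 0.0286). For the summed CCL5 values an exact permutation test, 2-sided, gave p = 0.1, the smallest that 3 against 3 libraries allow. The summed fit was not repeated with a library left out. The sum takes the rows as copies of 1 gene and of equal length, which was not tested. CCL5 was the 1 chemokine gene of the 10 with such a copy.

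**Figure D4:**
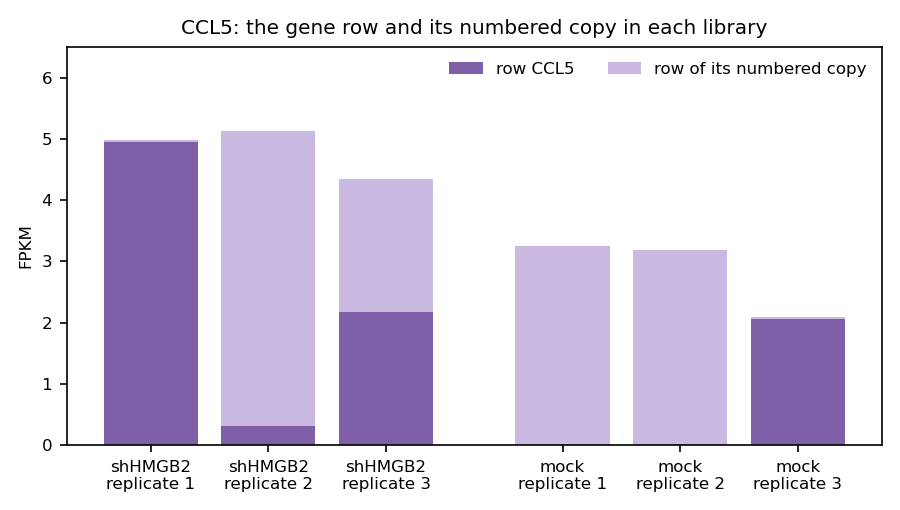
FPKM (y axis) of the CCL5 row and of its numbered copy, stacked, in each shHMGB2 and mock library. The share of the first row runs from 0 to 99.4% between libraries, while the stacked height is 4.34 to 5.13 FPKM in shHMGB2 and 2.09 to 3.25 FPKM in mock.

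By level per length, the order in shHMGB2 was CXCL8, CXCL1, CXCL2, CXCL3, CCL20, CXCL16, CXCL10, CCL5, CXCL11 and CXCL5 by mean FPKM of the single rows. In mock it was CXCL8, CXCL1, CXCL2, CCL20, CXCL3, CXCL16, CXCL10, CCL5, CXCL11 and CXCL5. With its copy summed, CCL5 stood above CXCL10 by mean in both groups. The means were 4.82 against 3.89 FPKM in shHMGB2 and 2.84 against 2.15 FPKM in mock. CXCL8, CXCL1 and CXCL2 did not overlap each other in either group. Within libraries, CXCL3 was above CXCL16 in all 6. CCL20 was above both in all 3 mock libraries, while in shHMGB2 it was below CXCL3 in replicates 1 and 3 and below CXCL16 in replicate 1.

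An adjusted p is given for 7 of the 10 genes in the authors' deposited table. Of these, 5 were lower at an adjusted p under 0.05 (CXCL8, CXCL1, CXCL2, CCL20 and CXCL16) and 0 were higher, where 9.23% of the table's genes with an adjusted p were lower and 6.13% higher. None of the 10 is marked Up or Down there. The log2 fold changes in the authors' deposited table were -0.99 for CXCL8, -0.81 for CXCL1 and 0.76 for CXCL10.

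Few of the other chemokines or chemokine receptors in the table reached 0.5 FPKM in any library. Of 4 further CXC genes in the table, 4 were below 0.5 FPKM in every library and 0 entered the test. Of 11 further CC, C and CX3C genes, 2 entered it and 0 passed an adjusted p of 0.05 in limma. CCL2, a monocyte chemokine, had the smallest p of these, with 2.01, 1.62 and 1.03 FPKM in the shHMGB2 libraries, against 1.01, 0.56 and 0.65 FPKM in the mock libraries (log2 fold change 0.54, SE 0.17, limma adjusted p = 0.0955). Of 16 receptor genes in the table, 15 were below 0.5 FPKM in every library, including CXCR2, a receptor for CXCL8. Of the genes listed, 6 of 22 receptors, 4 of 8 further CXC genes and 9 of 20 further CC, C and CX3C genes had no row. The levels of those genes are not known. ACKR3, an atypical receptor that binds CXCL11 and CXCL12, was the 1 receptor tested, with 6.71 ± 0.401 FPKM in shHMGB2 and 5.76 ± 0.925 FPKM in mock (SD, n = 3 each; limma adjusted p = 0.272). MMP1, a collagenase, was lower among the 3 tested enzymes of the processing list (log2 fold change -0.42, SE 0.093, limma adjusted p = 0.041), and lost its call whichever library was left out (limma adjusted p 0.0572 to 0.138).

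Genes of the pathways known to drive these chemokines were read from lists. Each count below stands beside the shares over all genes tested, 3.45% called lower and 3.3% called higher. Of 15 NF-kB factors and inhibitors tested, 2 were lower and 0 higher, with a median log2 fold change of -0.07. Groups did not overlap for 4 of the 15 downward and 2 upward, where 14% and 21.6% of all genes tested showed this. RELA, a transactivating NF-kB subunit, had 41.3 ± 3.31 FPKM in shHMGB2 and 44.3 ± 2.45 FPKM in mock (SD, n = 3 each, limma adjusted p = 0.401). NFKBIA, an inhibitor induced by NF-kB itself, had 236 ± 3.04 FPKM in shHMGB2 and 248 ± 29.3 FPKM in mock (SD, n = 3 each, limma adjusted p = 0.651). The 2 that fell were BCL3, a nuclear cofactor of NF-kB (log2 fold change -0.47, SE 0.074, limma adjusted p = 0.0141), and NFKBIB, an inhibitor (-0.32, SE 0.073, limma adjusted p = 0.0422). BCL3 lost its call when shHMGB2 replicate 2 or 3 was left out (limma adjusted p = 0.0593 and 0.0609). NFKBIB kept its call only when mock replicate 2 was left out (limma adjusted p = 0.0495), against 0.0714 to 0.139 without each of the other 5 libraries and 0.106 with its numbered copy summed.

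Of 11 tested cytokines and cytokine receptors upstream of chemokines, 3 fell and 1 rose, with a median log2 fold change of -0.07. IL1B, an inducer of CXCL8, had 1.71, 1.70 and 1.79 FPKM in the shHMGB2 libraries, against 3.86, 5.29 and 4.28 FPKM in the mock libraries. LIF, a cytokine of the interleukin 6 family, and IL36G, an epithelial interleukin 1 relative, fell by 0.93 and 0.52 on the log2 scale (limma adjusted p = 0.000807 and 0.00819). IL1RAP, the shared receptor subunit of interleukin 1, was higher by 0.30 on the log2 scale (SE 0.067; limma adjusted p = 0.0439). IL1RAP lost its call without each library other than mock replicate 3 (limma adjusted p 0.0714 to 0.158) and under median-of-ratios scaling (0.057). The plain rows of TNF and IL6 were below 0.5 FPKM in every library, as was IL1R1, another receptor subunit of interleukin 1.

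Of 13 interferon signalling genes, all tested, 3 rose and 2 fell, with a median log2 fold change of 0.11. STAT2, a transcription factor of the type I interferon response, had 53.3, 47.0 and 48.6 FPKM in the shHMGB2 libraries, against 28.7, 34.2 and 32.7 FPKM in the mock libraries. The groups did not overlap, and STAT2 rose by 0.63 on the log2 scale (SE 0.083; limma adjusted p = 0.00644). JAK1, a receptor-associated kinase, rose by 0.36 (SE 0.069, limma adjusted p = 0.0255), a call lost when mock replicate 2 or any of the 3 shHMGB2 libraries was left out (0.0648 to 0.0968). The row of IRF7, a factor of interferon genes, fell by 0.55 on the log2 scale (limma adjusted p = 0.0483), while its sum with the row taken as its copy, the larger of the pair in every library, had a log2 fold change of 0.010 (limma adjusted p = 0.952). Alone, the IRF7 row lost its call without each library other than mock replicate 3 (limma adjusted p 0.0738 to 0.152).

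Of 7 AP-1 factors, 2 fell and 0 rose, with a median log2 fold change of -0.10. FOSL1, a FOS family member, had 16.5, 17.4 and 17.8 FPKM in the shHMGB2 libraries, against 56.5, 58.2 and 52.4 FPKM in the mock libraries (log2 fold change -1.64, SE 0.063, limma adjusted p = 0.000113). JUNB fell by 0.44 on the log2 scale (limma adjusted p = 0.0166), a call lost when shHMGB2 replicate 2 or 3 was left out (limma adjusted p = 0.0711 and 0.0708).

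Many chemokine mRNAs carry AU-rich elements, and RNA-binding proteins control their decay. Of 7 proteins that bind inflammatory mRNAs, 1 rose and 2 fell, with a median log2 fold change of -0.08. ZFP36L1 rose by a log2 fold change of 0.26, while ZFP36L2 fell by 0.35 on the log2 scale and ZC3H12A, an endonuclease that recognises stem-loops in inflammatory mRNAs, by 0.30 (limma adjusted p = 0.042, 0.0148 and 0.045). ZFP36L1 and ZC3H12A lost their calls whichever library was left out (limma adjusted p 0.0567 to 0.155 and 0.0673 to 0.131), and ZFP36L1 also under median-of-ratios scaling (0.0608). ZFP36L2 lost its call when mock replicate 2 or any of the 3 shHMGB2 libraries was left out (0.0576 to 0.0724). How these factors bear on the chemokine levels was not tested.

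**Figure D5:**
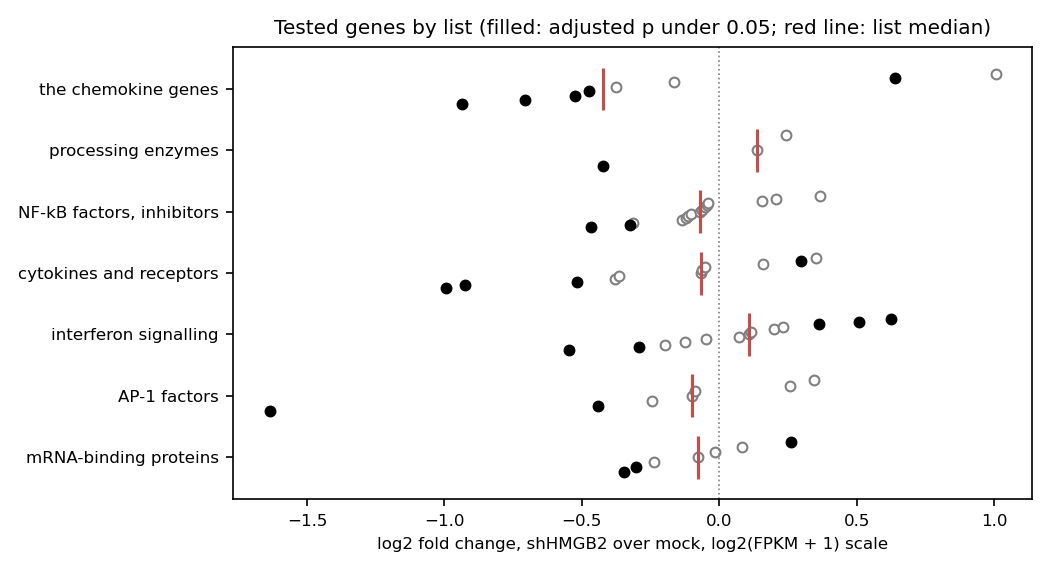
Log2 fold change of shHMGB2 over mock on the log2(FPKM + 1) scale (x axis) for every tested gene of 7 lists (rows); filled points passed an adjusted p of 0.05 in limma and red lines are list medians. The chemokine genes have a median of -0.42 and spread from -0.94 (CXCL8) to 1.01 (the CCL5 row), and FOSL1 lies furthest left at -1.64.

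The genes nearest to the abundant chemokines in profile were found among 4123 others with a mean of at least 20 FPKM. Likeness was the root mean square difference, over 6 libraries, of log2(FPKM + 1) after each gene's mock mean was subtracted. For CXCL8 the nearest were STK39, DKK1 and FGFBP1 (0.081, 0.082 and 0.097). DKK1, a secreted WNT inhibitor, had means of 31.4 FPKM in shHMGB2 and 64.2 FPKM in mock. For CXCL1 they were TOMM5, SLC6A8 and RAN (0.080, 0.081 and 0.088), and for CXCL2 SDC4, SELENOF and PLEK2 (0.049, 0.065 and 0.065). The libraries are the same 6 for all genes, and the measure was used to describe, with no test.

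Markers of other cell types were low in both groups. Leukocyte markers summed to 0.36 to 0.69 FPKM in shHMGB2 and 0.23 to 0.40 FPKM in mock, fibroblast markers to 3.99 to 4.41 FPKM in shHMGB2 and 2.91 to 3.68 FPKM in mock, and endothelial markers to 2.39 to 2.80 FPKM in shHMGB2 and 1.88 to 2.58 FPKM in mock. Most of the fibroblast sum was LUM, at 3.49 ± 0.199 FPKM in shHMGB2 and 2.57 ± 0.418 FPKM in mock, and of the endothelial sum ERG, at 1.97 ± 0.125 FPKM in shHMGB2 and 1.75 ± 0.352 FPKM in mock (SD, n = 3 each; limma adjusted p = 0.0944 and 0.527). Of 8 squamous epithelial markers, the keratins KRT14 (-0.55) and KRT6A (-0.54) fell and the stem cell factor SOX2 (0.42) rose, in log2 fold change (limma adjusted p = 0.00532, 0.00557 and 0.0307). SOX2 lost its call when mock replicate 2 or any of the 3 shHMGB2 libraries was left out (0.0609 to 0.108). What part these differences have in the chemokine results was not tested.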

How the data were processed

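The submitters' processing notes list Bowtie2 2.2.5, RSEM 1.2.12 and hg38, with no roles. The authors deposited 1 table: FPKM per library to 2 decimals, per the file headers, a normalised signal per group, a log2 fold change equal to the log2 of the ratio of these group values, and a p-value and adjusted p. The sources used here do not name the authors' test. No counts per library are in it, so no count test was run.

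Genes averaging 1 FPKM or more across all 6 libraries were tested, 2-sided, on log2(FPKM + 1) in limma 3.58.1 under R 4.3.3. The model held group alone, with eBayes trend, and p-values were adjusted by Benjamini-Hochberg across the 13409 genes, with a threshold of 0.05. The fit was tested on simulated data. Named were the 10 chemokine genes, HMGB2, from each list at most 4 called genes with the largest change or, with none called, the smallest p, and 3 nearest profiles for chemokines of at least 20 FPKM. RELA, NFKBIA, ADAM10, ADAM17, TNF, IL6, IL1R1, CXCR2 and PTPRC were added after their values were seen. Members, lists and motifs were chosen with earlier results of these data known. Alternatives covered the pseudocount, filter, scaling, variance model, library weights, replicate block, each library left out, the authors' test and, added later, summed copies.

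The names of 2138 rows are another row's name with a number added. These were taken as copies of that gene, which the file does not state. No pair of libraries shared its FPKM for over 0.813% of the genes tested. Positions and promoters are from RefSeq on GRCh38.p14 and transcripts from GENCODE 29. One gene that the naming rule picks is not reported here.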

Additional observations from a re-analysis of the deposited data

How the results depend on the processing

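CXCL8 and CXCL1 kept direction and call in all 18 alternatives. The count of lower chemokine genes was 4, and 2 to 5 with a library left out; the count of higher ones was 1, and 0 to 1 with a library left out. It was 0 with no filter on low values, with a filter of 5 FPKM, which removes CXCL10, and in the authors' deposited table, and 2 with numbered copies summed. The count of all genes called was 905, and 290 to 873 with a library left out. It was 412 with no filter, 4194 with library weights and 2087 in the authors' deposited table. Same-numbered libraries did not deviate together (r from -0.096 to -0.012), and the replicate block gave 372 genes, 1 higher and 3 lower chemokine genes, CCL20 being lost (limma adjusted p = 0.0801). CCL20 was also lost with no filter (limma adjusted p = 0.0971). CXCL16 passed with a filter of 5 FPKM, median-of-ratios scaling, library weights or summed copies (limma adjusted p from 0.00473 to 0.0491). Median-of-ratios scaling split the calls over all genes into 349 higher and 571 lower, against 442 and 463. With copies summed, IRF7 lost its call and had a log2 fold change of 0.010 (95% interval -0.20 to 0.22, limma adjusted p = 0.952). The cause of these shifts was not tested. CXCL5 and CXCL11 have values only without the filter.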

Other observations

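Rows taken as numbered copies were also found for genes of the driving pathways. Of the genes in the other lists, 5 had such rows, and how the level was split over them differed from gene to gene. The copy of IRF7 held 17.9, 16.4 and 15.8 FPKM in the shHMGB2 libraries, against 16.6, 16.6 and 13.6 FPKM in the mock libraries, and the row that bears the plain name averaged 1.18 ± 0.236 FPKM in shHMGB2 and 2.19 ± 0.376 FPKM in mock (SD, n = 3 each). In every library the plain row of IRF7 was the smaller of the pair. IRF9, a partner of STAT2, was at the same level in both of its rows in every library, such as 30.2 FPKM in shHMGB2 replicate 1 and 25.8 FPKM in mock replicate 1.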
